A study of Mus musculus with 37 samples.

Results

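The comparison described here is the wild-type mouse mammary gland at day 15 of pregnancy (P15) against day 10 (P10). It was chosen by its labels, as the 4 wild-type (WT) arrays of P15 and the 3 WT arrays of P10, and holds 7 of the 37 arrays of the series. The series measured total RNA of whole glands on Affymetrix arrays in FVB mice that carried PTP1B (WT, PTP1B +/+) or lacked it (KO, PTP1B -/-), before pregnancy and at days 3, 7, 10 and 15 of it. PTP1B is the tyrosine phosphatase that the gene Ptpn1 encodes, and the title names its effect on how the gland develops and differentiates. Females of both genotypes were 12 weeks old when mated, on an FVB background reached by at least 7 generations of backcrossing, and received no treatment. The WT P10 and WT P15 glands thus share genotype, background and mating age and differ by labelled stage. The labels do not say whether replicates came from separate animals, so p-values measure the spread between samples, which may be technical, and no batch or date is given. That spread is taken within all 10 groups of the 37 arrays, not from the P10 and P15 arrays alone.

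In pregnancy the mammary fat pad fills with alveoli, whose luminal cells turn into milk-secreting cells under prolactin, acting through the receptor-bound kinase JAK2 and the transcription factor STAT5. Secretory differentiation in mid to late pregnancy is known for the onset of milk protein and milk lipid genes, before copious secretion begins after birth. Whole-gland RNA mixes these cells with adipocytes, vessels, matrix-producing cells and immune cells.

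Between P10 and P15 2 of 5 caseins, 9 of 13 whey and other secreted milk proteins, 9 of 14 milk fat globule genes and 14 of 22 ion, zinc and water transport genes rose. Of the white adipocyte markers 17 of 18 fell, and of the endothelial markers 13 of 13. Of 16865 genes tested, 6679 were called at a limma adjusted p under 0.05, which is 39.6% of them, and 8086 (47.9%) at an unadjusted p under 0.05. Of all tested genes 2885 (17.1%) were called as risen and 3794 (22.5%) as fallen. In 3168 genes (18.8%) every P15 array lay above every P10 array, and in 4649 (27.6%) every P15 array lay below. Changes past 1 on the log2 scale, a doubling, were found in 268 risen and 525 fallen genes, and changes past 2 in 33 and 24. Values are log2 intensities, differences are P15 minus P10 on that scale, each with its standard error (SE) from the fit, and "rose" or "fell" is used of called genes. Since the tissue is bulk, fewer cells of a type, less RNA per cell and a larger share of RNA from other cells cannot be told apart.

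The split into risen and fallen genes depended on how the arrays were scaled. The P15 arrays had medians of 6.76 to 6.79 over all probe sets and the P10 arrays 6.53 to 6.59. The median difference was -0.01 over the genes tested, and 0.21 over the 13120 probe sets that carry no gene symbol or several. With each array centred on its median the tested genes shifted to a median difference of -0.22, and 1116 rose and 6884 fell. A further quantile normalization gave a median of -0.14, with 2052 risen and 5187 fallen. Over all 34760 probe sets 8097 rose and 4719 fell. Among the 4217 dimmest tested genes 821 rose and 189 fell, whereas among the 4216 brightest 816 rose and 1341 fell.

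**Figure D1:**
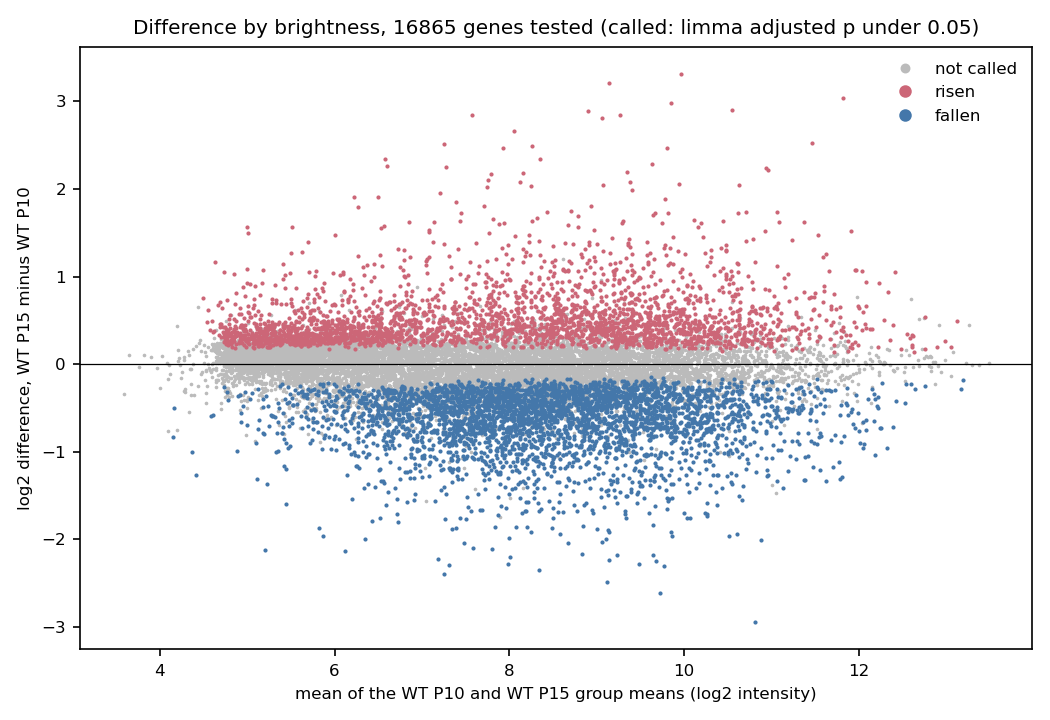
Each point is 1 of 16865 tested genes, with the mean of the WT P10 and WT P15 group means on the x axis (log2 intensity) and the log2 difference P15 minus P10 on the y axis. Red points rose, blue points fell and grey points were not called; among dim genes risen points (821) outnumber fallen ones (189), and among the brightest they do not (816 against 1341).

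The labelled tissue fits its markers in all 7 arrays: the casein Csn2 lay at 12.89 or above, Krt18, a luminal keratin, between 10.27 and 11.21, and Adipoq, the adipocyte hormone adiponectin, between 10.89 and 12.56. Ptpn1 lay between 8.02 and 8.94, as the label WT asks. Of 19 tested pan-epithelial markers 14 rose and 0 fell, with a median of 0.79 (0.52 without WT P10 replicate 1) beside -0.01 for all tested genes. The mean level of this list, each gene centred on its mean over the 37 arrays, was -0.55, -0.02 and 0.22 in the P10 arrays and 0.43 to 0.64 in the P15 arrays. The lowest value belonged to WT P10 replicate 1, and without that array 6 of the 19 markers rose. With arrays centred on their medians 8 rose, and in WT arrays alone 9. Spint2, a protease inhibitor of epithelia, rose by 1.15 ± 0.21 (adjusted p = 6.34e-05), and Esrp2, an epithelial splicing factor, by 1.14 ± 0.20 (adjusted p = 5.4e-05). The luminal keratins Krt8 (0.35 ± 0.22, adjusted p = 0.21) and Krt18 (0.28 ± 0.19, adjusted p = 0.243) were not called. Krt19, another luminal keratin, rose. With single arrays left out its difference was 0.60 to 1.01, and 1 of the 7 limma fits lost the call (adjusted p = 0.0623). Epithelial marker level was therefore higher in every P15 array than in every P10 array, while the number of markers called leaned on WT P10 replicate 1. The part of this level in the changes of milk genes below was not tested.

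STAT5 binds DNA at sites of the form TTCNNNGAA, and the casein promoters and Cish, the feedback inhibitor CISH, are textbook targets. The stretches below run from 250 bases before to 50 after the start site in RefSeq (GRCm38.p6), printed 5′ to 3′ on the gene's strand, with matches to TTCNNNGAA in capitals. They are shown because their genes span the outcomes of this comparison: Csn1s1, Csn2 and Csn1s2a lay high at both stages, Cish rose, and Wap, the whey acidic protein, was among the largest rises. Csn1s1 lies at chr5:87665958-87666257 (+), Csn2 at chr5:87699376-87699675 (-), Csn1s2a at chr5:87774200-87774499 (+), Cish at chr9:107296409-107296708 (+) and Wap at chr11:6638600-6638899 (-).
Csn1s1: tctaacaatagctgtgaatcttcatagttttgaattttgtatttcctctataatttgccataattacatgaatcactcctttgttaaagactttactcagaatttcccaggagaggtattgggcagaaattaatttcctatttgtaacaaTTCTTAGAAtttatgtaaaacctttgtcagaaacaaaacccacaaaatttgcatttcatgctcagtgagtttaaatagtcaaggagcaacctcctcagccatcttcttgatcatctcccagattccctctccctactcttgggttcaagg
Csn2: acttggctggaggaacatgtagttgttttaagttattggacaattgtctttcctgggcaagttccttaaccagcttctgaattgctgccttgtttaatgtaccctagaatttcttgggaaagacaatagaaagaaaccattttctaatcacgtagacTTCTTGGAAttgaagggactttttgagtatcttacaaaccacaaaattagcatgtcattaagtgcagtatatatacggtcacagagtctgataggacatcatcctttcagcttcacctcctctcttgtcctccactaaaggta
Csn1s2a: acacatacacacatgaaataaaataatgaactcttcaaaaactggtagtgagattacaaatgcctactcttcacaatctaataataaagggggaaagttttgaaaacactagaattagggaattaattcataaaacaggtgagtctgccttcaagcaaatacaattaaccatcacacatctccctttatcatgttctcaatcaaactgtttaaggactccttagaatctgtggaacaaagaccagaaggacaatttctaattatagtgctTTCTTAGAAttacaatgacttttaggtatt
Cish: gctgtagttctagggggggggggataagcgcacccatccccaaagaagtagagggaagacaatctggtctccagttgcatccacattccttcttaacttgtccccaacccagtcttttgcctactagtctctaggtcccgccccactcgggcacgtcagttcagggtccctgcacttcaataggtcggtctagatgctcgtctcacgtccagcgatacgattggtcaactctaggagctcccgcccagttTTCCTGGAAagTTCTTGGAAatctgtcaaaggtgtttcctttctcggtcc
Wap: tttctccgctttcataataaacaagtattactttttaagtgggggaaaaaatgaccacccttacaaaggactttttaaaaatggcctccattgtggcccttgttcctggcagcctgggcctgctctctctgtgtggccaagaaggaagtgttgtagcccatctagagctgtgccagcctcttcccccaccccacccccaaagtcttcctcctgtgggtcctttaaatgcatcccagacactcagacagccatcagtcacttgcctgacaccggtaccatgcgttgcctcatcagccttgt

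The pattern reads the same on both strands. Its first base lay at -100 in Csn1s1, -93 in Csn2 and 21 in Csn1s2a, and Cish held a pair of matches, at 1 and 12, counted from the start site. Wap held no match in this window. All 3 caseins with a promoter in the table held the pattern, as did 8.3% of all 32851 promoters (2726). Counted by gene, it was held by 8.4% of the tested genes with a promoter, 9.18% of the risen ones (204 of 2223) and 8.3% of the fallen ones (253 of 3048). Of 11 whey protein genes 1 held it, and of the 12 promoters found for the 15 largest rises 0 did. A match is a run of letters and not a measured binding site.

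All 5 caseins, the main milk proteins, lay higher in every P15 array than in every P10 array, as did 18.8% of all tested genes. Of the 5, only Csn1s2b and Csn3 were called. Csn1s2b, a calcium-sensitive casein, read 5.32, 5.35 and 5.76 at P10 and 7.56, 8.25, 7.05 and 8.08 at P15. It rose by 2.26 ± 0.35 (4.78-fold, adjusted p = 1.17e-05). Csn3, the casein that coats and stabilises the micelle, read 11.72, 11.90 and 12.04 at P10 and 12.90 to 12.98 at P15, a rise of 1.05 ± 0.19 (2.08-fold, adjusted p = 7.97e-05). Csn2, the beta-casein, read 12.89, 13.01 and 13.20 at P10 and 13.44 to 13.57 at P15, near the top of the table at 13.71. Its difference was 0.45 ± 0.52 (adjusted p = 0.512). Csn1s1 (0.51 ± 0.36, adjusted p = 0.258) and Csn1s2a (0.45 ± 0.61, adjusted p = 0.589) were likewise not called. The SE comes from the spread over all groups: the SD of Csn2 was 1.34 before pregnancy and 0.06 at P15. In a fit of the P10 and P15 arrays alone all 5 caseins were called as risen.

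Of 13 tested whey and other secreted milk proteins 9 rose and 1 fell, with a median of 1.07. Wap, a protease inhibitor-like whey protein, read 9.41, 10.00 and 11.49 at P10 and 13.29, 13.48, 13.16 and 13.45 at P15. The P10 arrays spread over more than 2 log2 units. The groups did not overlap, a condition of the choice of Wap among the largest rises. The P15 arrays lay close together, near the top of the table at 13.71. The rise was 3.04 ± 0.70 (8.25-fold, adjusted p = 0.00103). Cel, the bile salt-stimulated lipase of milk, read 7.69, 8.06 and 9.16 at P10 and 11.69, 11.77, 11.20 and 11.80 at P15. It had the largest rise of all tested genes, 3.31 ± 0.60 (9.91-fold, adjusted p = 7.95e-05).

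Among the other members of this list were Lao1, Lpo and Ltf. Lao1, an L-amino acid oxidase of milk, read 8.29, 8.89 and 10.11 at P10 and 12.05, 12.03, 11.88 and 12.04 at P15 (2.90 ± 0.57, adjusted p = 0.000208). Lpo, the lactoperoxidase, read 5.74, 6.21 and 6.51 at P10 and 9.07, 9.14, 8.25 and 9.53 at P15 (2.84 ± 0.24, adjusted p = 7e-10). Ltf, the iron-binding lactoferrin, rose by 2.28 ± 0.50 (4.86-fold, adjusted p = 0.000642). None of the 3 overlapped between the stages, as 18.8% of all tested genes did not in this direction. For Lao1 and Lpo this was a condition of their choice among the largest rises. Lcn2, which binds siderophores, rose by 1.07 ± 0.19, and Folr1, a folate receptor shed into milk, by 2.04 ± 0.24 (adjusted p = 1.35e-07). Trf, transferrin, rose by 0.49 ± 0.09 from levels of 12.72 to 13.05. The one fall was Apoe, the apolipoprotein E that macrophages and adipocytes also make, from 12.69 to 12.73 at P10 to 11.52 to 11.82 at P15 (-1.03 ± 0.09, adjusted p = 1.76e-09). Glycam1, a mucin-like milk protein, differed by 0.74 ± 1.12 (adjusted p = 0.627) and Wfdc18 by 0.53 ± 0.31 (adjusted p = 0.175). Lalba, the alpha-lactalbumin of lactose synthase, was not analysed here.

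**Figure D2:**
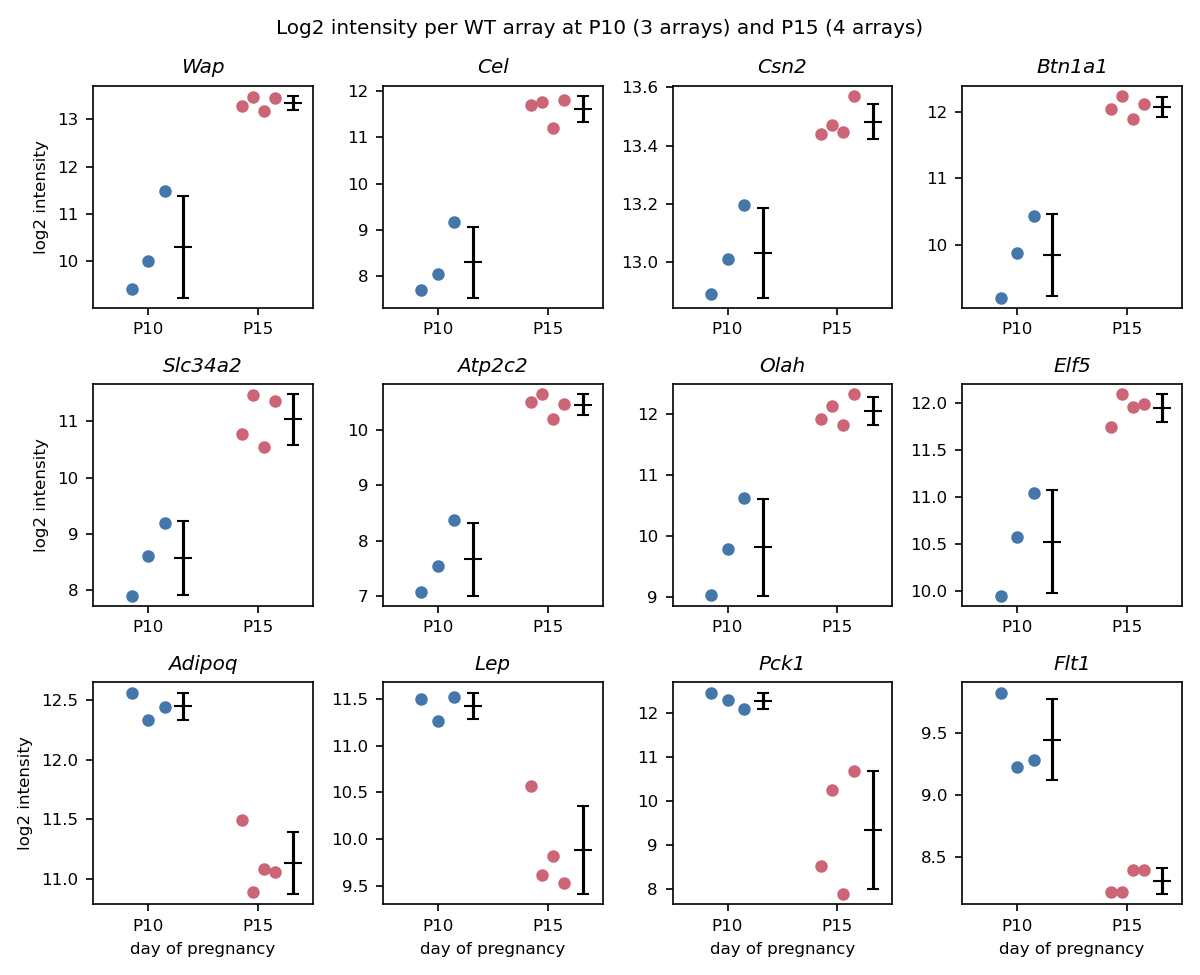
Log2 intensity (y axis) of 12 genes in each WT array at P10 (blue, 3 arrays) and P15 (red, 4 arrays); the black bar beside the points is the group mean with its SD. The genes were picked after the values were seen, and in all 12 panels the stages do not overlap. Among all tested genes every P15 array lay above every P10 array in 18.8% and below in 27.6%. For Wap the P10 arrays run from 9.41 to 11.49 while the P15 arrays lie at 13.16 or above.

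Milk fat leaves the cell wrapped in apical membrane, and 9 of 14 genes of the milk fat globule rose while 1 fell, with a median of 0.85. Btn1a1, the butyrophilin of the globule membrane, read 9.22, 9.89 and 10.44 at P10 and 12.04, 12.23, 11.88 and 12.11 at P15. It rose by 2.22 ± 0.35 (4.65-fold, adjusted p = 1.33e-05). Xdh, the xanthine oxidoreductase that acts with butyrophilin in fat secretion, rose by 1.23 ± 0.13 (adjusted p = 4.45e-08), and Abcg2, an apical transporter that carries riboflavin into milk, by 1.99 ± 0.18 (adjusted p = 2.04e-09). Rab18, a GTPase of lipid droplets, rose by 1.07 ± 0.11 (2.1-fold), Mfge8, a globule glycoprotein, by 0.94 ± 0.17, and Muc1, a membrane mucin, by 1.14 ± 0.30. Fabp3, a fatty acid-binding protein, read 9.47, 10.01 and 11.13 at P10 and 12.55 to 12.84 at P15. Its rise of 2.52 ± 0.81 (adjusted p = 0.014) was not called without WT P10 replicate 1 (2.16, adjusted p = 0.0799) or in WT arrays alone (adjusted p = 0.0514).

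For lactose synthesis and glucose uptake 4 of 11 genes rose and 2 fell, and the members ran from -0.83 to 1.52. The genes named below are the 4 that rose. When arrays were centred on their medians the list median of 0.05 turned to -0.15 and 4 genes fell. The fallen count was 0 without WT P10 replicate 1 and 1 without WT P10 replicate 2 or WT P15 replicate 1, 3 or 4, and the median lay between -0.01 and 0.10 with single arrays left out. B4galt1, the galactosyltransferase that makes lactose with alpha-lactalbumin, read 10.86, 11.12 and 11.45 at P10 and 12.63, 12.77, 12.48 and 12.80 at P15, a rise of 1.52 ± 0.11 (2.88-fold, adjusted p = 2.7e-11). Slc2a1, the glucose transporter GLUT1, read 9.86, 9.96 and 10.41 at P10 and 11.45 to 11.58 at P15 (1.43 ± 0.15, adjusted p = 3.08e-08). Neither gene overlapped between the stages, as 18.8% of all tested genes did not in this direction. Akt1, a kinase that controls glucose uptake in the secreting gland, rose by 0.45 ± 0.10 (adjusted p = 0.000536). Slc35a2, the Golgi UDP-galactose transporter, rose by 0.40 ± 0.08 but was not called with arrays centred on their medians (0.20, adjusted p = 0.0766).

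Genes that move ions, zinc and water into milk changed mostly upward: 14 of 22 rose and 2 fell, with a median of 0.67. Atp2c2, a Golgi calcium and manganese pump, read 7.07, 7.53 and 8.37 at P10 and 10.52, 10.65, 10.20 and 10.48 at P15 (2.81 ± 0.25, adjusted p = 1.77e-09). Slc34a2, a sodium-phosphate cotransporter, read 7.89, 8.61 and 9.19 at P10 and 10.78, 11.46, 10.54 and 11.36 at P15 (2.47 ± 0.41, adjusted p = 2.31e-05). In both genes the lowest P15 array lay more than 1 log2 unit above the highest P10 array. Lack of overlap was a condition of their choice among the largest rises. Orai1, the store-operated calcium channel, rose by 1.38 ± 0.13 (adjusted p = 3.72e-09), and Atp2b2, the plasma membrane pump that exports calcium into milk, by 1.22 ± 0.14. Stim1, the calcium sensor that opens Orai1, fell by 0.61 ± 0.11 (adjusted p = 4.55e-05). The zinc transporters Slc30a2 and Slc30a4 rose by 1.62 ± 0.13 and 0.74 ± 0.15, and Car6, a secreted carbonic anhydrase, by 1.60 ± 0.35. Aqp3, a water channel, rose by 1.31 ± 0.33, yet its P15 arrays (7.37, 9.09, 7.09 and 8.72) overlapped those of P10 (6.38, 6.44 and 7.45). Aqp1, the water channel of vessel walls, fell by 0.77 ± 0.23 (adjusted p = 0.00908).

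Tight junctions close the alveolar lumen, and 5 of 13 junction genes rose and 1 fell, with a median of 0.41. Without WT P10 replicate 1, 0 of the 13 were called as risen and the median was 0.25. Cldn8, a claudin, rose by 1.05 ± 0.31 (adjusted p = 0.0078), against 0.72 (adjusted p = 0.104) without that array. Ocln, occludin, rose by 0.81 ± 0.21 (adjusted p = 0.00325), against 0.57 (adjusted p = 0.0581). Cldn5, the claudin of endothelial junctions, fell by 1.27 ± 0.26 (adjusted p = 0.000313).

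Amino acid transport, serine and folate genes moved both ways, with 8 of 24 risen (33.3%) and 4 fallen (16.7%), beside 17.1% and 22.5% of all tested genes. The list median was 0.29. The median was 0.13 without WT P15 replicate 1, 0.17 without WT P15 replicate 3 and 0.09 with arrays centred on their medians. Slc7a5, which imports leucine and other large neutral amino acids, read 10.24, 10.51 and 10.91 at P10 and 12.37, 12.05, 12.25 and 12.07 at P15 (1.63 ± 0.24, adjusted p = 6.24e-06). Slc38a3, a glutamine transporter, rose by 1.26 ± 0.32, Slc7a4 by 1.22 ± 0.13 and Slc1a4, which carries alanine and serine, by 1.06 ± 0.21. Slc1a3, a glutamate transporter, fell from 11.14, 10.62 and 10.13 to 9.20, 8.84, 8.70 and 9.18 (-1.65 ± 0.26, adjusted p = 1.01e-05), and Slc36a2, a proton-coupled carrier, fell by 1.37 ± 0.36. Psat1, of serine synthesis, differed by 0.24 ± 0.21 (adjusted p = 0.391).

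Of 29 genes of fatty acid and triglyceride synthesis 5 rose (17.2%) and 8 fell (27.6%), beside 17.1% and 22.5% of all tested genes, with a median of -0.31 (-0.19 without WT P10 replicate 1). The fallen count was 4 without WT P15 replicate 4, 3 without WT P10 replicate 1 and 13 in a fit of these 7 arrays alone. Olah, the thioesterase that ends fatty acid chains at medium length in milk, read 9.04, 9.79 and 10.62 at P10 and 11.92, 12.14, 11.82 and 12.32 at P15, a rise of 2.24 ± 0.57 (4.71-fold, adjusted p = 0.00248). Acsl4, an acyl-CoA synthetase, rose by 1.62 ± 0.16 (adjusted p = 9.54e-09), the desaturase Fads2 by 0.80 ± 0.19 and the elongase Elovl1 by 0.65 ± 0.12. The desaturase Fads1 rose by 0.40 ± 0.10, a call not made with arrays centred on their medians (0.19, adjusted p = 0.169).

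Fasn and Acly were not called. Fasn, the fatty acid synthase, read 13.29, 13.10 and 12.99 at P10 and 13.04, 12.97, 13.02 and 12.92 at P15 (-0.14 ± 0.14, adjusted p = 0.444). Acly, which supplies cytosolic acetyl-CoA, differed by -0.42 ± 0.28 (adjusted p = 0.232). Their groups overlapped. Genes that fell included Mlxipl, the carbohydrate-responsive factor ChREBP (-1.31 ± 0.34, adjusted p = 0.00272), and the acyltransferases of the last step of triglyceride synthesis, Dgat1 (-0.98 ± 0.25) and Dgat2 (-0.72 ± 0.16). Adipocytes, whose markers fell over the same interval, also express these genes, and the part of that in these falls was not tested.

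Of 20 genes of cholesterol synthesis and uptake 1 rose and 8 fell, with a median of -0.44. The fallen count was 5 without WT P15 replicate 2 or WT P10 replicate 2, 3 without WT P15 replicate 4 and 1 without WT P10 replicate 1. Hmgcs1, the synthase of the mevalonate pathway, read 10.47, 10.29 and 10.13 at P10 and 9.41, 8.96, 9.22 and 8.55 at P15 (-1.26 ± 0.25, adjusted p = 0.000232). Fdft1, squalene synthase, fell by 0.79 ± 0.23 (adjusted p = 0.00721), but by 0.58 with adjusted p = 0.0851 without WT P10 replicate 1. Ebp, a sterol isomerase, was the gene that rose (0.56 ± 0.10, adjusted p = 6.51e-05). Sqle, squalene epoxidase, differed by -0.32 ± 0.22 (adjusted p = 0.256).

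In the endoplasmic reticulum, 13 of 32 genes of folding and secretion rose and 1 fell (4 with arrays centred on their medians), with a median of 0.25. Sec23b, a coat protein of vesicles that leave the reticulum, read 10.00, 9.99 and 10.15 at P10 and 11.18, 11.17, 10.93 and 10.91 at P15 (1.003 ± 0.11, adjusted p = 6.65e-08). Sec61a1, the channel through which secreted proteins enter, rose by 0.64 ± 0.08 (adjusted p = 6.82e-07), Spcs3, of the signal peptidase, by 0.69 ± 0.14, and Ssr4, of the translocon, by 0.57 ± 0.10. Xbp1, a transcription factor of secretory cells, rose by 0.45 ± 0.10, and was not called with arrays centred on their medians (0.25, adjusted p = 0.0609). The chaperones Hspa5 (0.25 ± 0.11, adjusted p = 0.0767) and Hsp90b1 (-0.20 ± 0.10, adjusted p = 0.103) were not called.

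**Figure D3:**
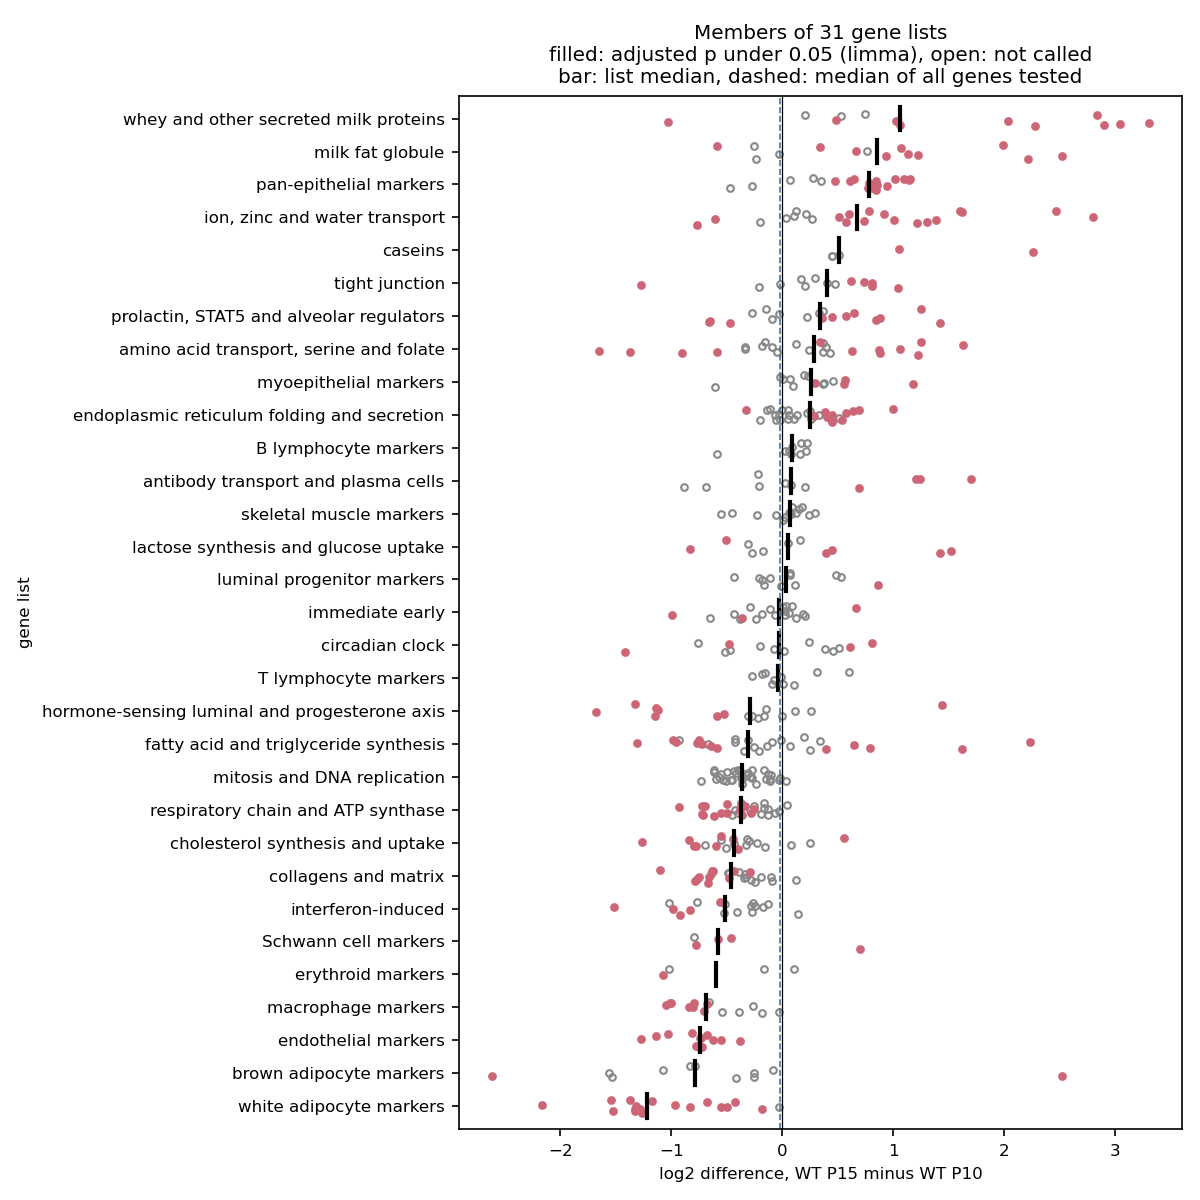
Log2 difference P15 minus P10 (x axis) of the tested members of 31 gene lists (y axis, ordered by median). Filled points were called by limma at an adjusted p under 0.05 and open points were not, black bars are list medians, and the dashed line is the median of all tested genes (-0.01); the list medians run from 1.07 for whey proteins to -1.22 for white adipocyte markers.

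Of 18 prolactin, STAT5 and alveolar regulators 8 rose and 3 fell (6 with arrays centred on their medians), with a median of 0.35. Elf5, the factor that drives alveolar differentiation, read 9.95, 10.58 and 11.04 at P10 and 11.74 to 12.09 at P15 (1.42 ± 0.35, adjusted p = 0.00187). Erbb4, a receptor of the alveolar epithelium, rose by 1.25 ± 0.29, the nuclear factor Nfib by 0.65 ± 0.10 (adjusted p = 4.97e-06) and Stat5a by 0.58 ± 0.11 (adjusted p = 0.000104). Cish, whose promoter is printed above, read 8.03, 8.56 and 8.42 at P10 and 9.02, 9.49, 9.13 and 9.25 at P15. Its rise of 0.89 ± 0.31 (adjusted p = 0.0214) was not called without WT P15 replicate 2 (0.80, adjusted p = 0.0548), without WT P10 replicate 1 (0.73, adjusted p = 0.113) or with arrays centred on their medians (0.68, adjusted p = 0.0631). Gata3, a luminal factor, rose by 0.85 ± 0.26 (adjusted p = 0.0112), but was not called without WT P10 replicate 1 (0.62, adjusted p = 0.108) or in WT arrays alone (adjusted p = 0.052).

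Socs2, another feedback inhibitor of this pathway, fell by 0.65 ± 0.16 (adjusted p = 0.00197) from 10.61, 10.52 and 10.37 to 9.65, 9.99, 9.82 and 9.95. Ghr, the growth hormone receptor, fell by 0.65 ± 0.11 (adjusted p = 3.06e-05). The prolactin receptor gene Prlr was not analysed here.

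In the list of hormone-sensing luminal cells and the progesterone axis 7 of 16 genes fell and 1 rose, with a median of -0.29. Esr1, the oestrogen receptor, read 10.25, 9.82 and 9.94 at P10 and 9.15, 8.81, 8.78 and 8.79 at P15 (-1.12 ± 0.17, adjusted p = 8.49e-06). Foxa1, its pioneer factor, read 7.63, 7.87 and 7.83 and then 6.84, 6.60, 6.53 and 6.55 (-1.15 ± 0.22, adjusted p = 0.000112). In both genes all P15 arrays lay below all P10 arrays, as in 27.6% of all tested genes. Cited1, an oestrogen receptor coregulator, fell by 1.14 ± 0.31 (adjusted p = 0.00375), and Tph1, which makes serotonin in the gland, by 1.68 ± 0.22 (adjusted p = 9.06e-07). Pgr, the progesterone receptor (-0.14 ± 0.31, adjusted p = 0.738), and its target Tnfsf11, the ligand RANKL (-0.27 ± 0.17, adjusted p = 0.209), were not called. The RANKL receptor gene Tnfrsf11a was the one that rose, from 8.10, 8.45 and 8.81 to 9.76, 9.94, 10.01 and 9.86 (1.44 ± 0.18, adjusted p = 4.49e-07).

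Antibodies reach milk by transport across the epithelium from plasma cells that home to the gland. Of 11 genes of that list 4 rose and 0 fell, and the median of 0.09 turned to -0.12 with arrays centred on their medians. Pigr, the receptor that carries polymeric antibody across the cell, read 8.23, 8.58 and 9.60 at P10 and 10.21, 10.88, 10.53 and 10.37 at P15 (1.70 ± 0.35, adjusted p = 0.000335). Ccl28, a chemokine that attracts plasma cells, rose by 1.24 ± 0.26 (adjusted p = 0.000387), and Fkbp11, a folding enzyme of secretory cells, by 1.21 ± 0.19. Jchain, the joining chain made by plasma cells, read 8.14, 8.43 and 9.18 at P10 and 8.15, 7.94, 7.91 and 7.58 at P15 (-0.69 ± 0.56, adjusted p = 0.344).

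White adipocyte markers fell almost throughout: 17 of 18 fell and 0 rose, with a median of -1.22. Their mean level was 0.11 to 0.45 in the P10 arrays and -0.88 to -0.56 in the P15 arrays. Adipoq read 12.56, 12.33 and 12.44 at P10 and 11.50, 10.89, 11.08 and 11.06 at P15 (-1.32 ± 0.16, 2.49-fold lower, adjusted p = 3.34e-07). Plin1, the perilipin that coats the fat droplet, fell by 1.33 ± 0.16 (adjusted p = 3.62e-07), and Lep, leptin, from 11.50, 11.27 and 11.52 to 10.57, 9.62, 9.82 and 9.53 (-1.55 ± 0.47, adjusted p = 0.0094). Acvr1c, an activin receptor of adipocytes, fell most in the list, by 2.16 ± 0.26 (4.48-fold). Others were Adig, adipogenin (-1.53 ± 0.24), Plin4 (-1.37 ± 0.24) and Aqp7, the glycerol channel (-1.32 ± 0.26).

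Among 11 brown adipocyte markers 1 rose and 1 fell, each 9.09%, beside 17.1% and 22.5% of all tested genes. The gene that rose was Fabp3, described with the milk fat globule, and the one that fell was Cox8b, a subunit of cytochrome oxidase, which read 12.03, 11.19 and 9.87 at P10 and 8.86, 8.42, 8.60 and 7.78 at P15 (-2.61 ± 0.47, adjusted p = 6.21e-05). Ucp1, the uncoupling protein that defines brown fat, read 10.67, 8.82 and 6.83 at P10 and 7.94, 7.20, 7.88 and 5.94 at P15 (-1.53 ± 1.28, adjusted p = 0.351). The mean level of the list was 0.55, -0.32 and -1.09 in P10 replicates 1 to 3 and -1.30 to -0.70 at P15, so P10 replicate 3 lay within the P15 range.

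Of 29 genes of the respiratory chain and ATP synthase 15 fell and 0 rose, with a median of -0.37. Without WT P10 replicate 1, the array with the highest brown adipocyte level at P10, 5 fell, and with arrays centred on their medians 25 did. The part of that level in these falls was not tested. Sdhb, of succinate dehydrogenase, fell by 0.93 ± 0.17 (adjusted p = 0.000119) and Ndufa2, of complex I, by 0.73 ± 0.13 (adjusted p = 9.53e-05).

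All 13 endothelial markers fell, with a median of -0.74. Flt1, a VEGF receptor, read 9.82, 9.23 and 9.28 at P10 and 8.21, 8.22, 8.39 and 8.40 at P15 (-1.14 ± 0.19, adjusted p = 3.21e-05). Pecam1, the platelet and endothelial adhesion molecule CD31, averaged 10.25 ± 0.09 at P10 (SD, n = 3) and 9.44 ± 0.25 at P15 (SD, n = 4). Esam, another endothelial adhesion molecule, fell by 1.02 ± 0.17 (adjusted p = 2.39e-05). Of 24 collagen and matrix genes 12 fell and 0 rose, with a median of -0.46 (19 fell with arrays centred on their medians), among them Thbs2, a matrix thrombospondin (-1.10 ± 0.27), Col6a1 (-0.79 ± 0.13) and the basement membrane collagen Col4a2 (-0.77 ± 0.17). Of 14 macrophage markers 8 fell and 0 rose, with a median of -0.69, such as the lysozyme Lyz2 (-1.05 ± 0.20) and the integrin Itgam (-1.005 ± 0.25). The macrophage count was 3 without WT P10 replicate 1, 4 without WT P10 replicate 2, WT P10 replicate 3 or WT P15 replicate 1, and 5 without WT P15 replicate 4.

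Markers of lymphocytes and muscle were not called. Of 9 B lymphocyte, 10 T lymphocyte and 15 skeletal muscle markers 0 rose and 0 fell by limma, with medians of 0.09, -0.04 and 0.08, and 0 had an unadjusted p under 0.05. The first and last of these medians turned to -0.11 and -0.13 with arrays centred on their medians, and the T lymphocyte one to 0.01 with array weights. A fit of these 7 arrays alone called 1 fallen B lymphocyte, 1 risen T lymphocyte and 1 fallen muscle marker. Among all tested genes 17.1% rose and 22.5% fell. Of 5 Schwann cell markers 1 rose (20%) and 3 fell (60%), and of 4 erythroid markers 1 fell (25%), near the share of all genes. Of 14 myoepithelial markers 4 rose (28.6%) and 0 fell, among them the smooth muscle actin Actg2 (1.18 ± 0.23, adjusted p = 0.000144), while Krt14, a basal keratin, differed by 0.38 ± 0.26 (adjusted p = 0.259). That count was 2 without WT P15 replicate 2 or 4 and 1 without WT P10 replicate 1 or with arrays centred on their medians. Of 12 luminal progenitor markers 1 rose (8.33%), Lbp, which binds lipopolysaccharide (0.86 ± 0.21, adjusted p = 0.00181), and the list median of 0.03 turned to -0.17 with arrays centred on their medians.

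Of 34 genes of mitosis and DNA replication 0 were called by limma and 1 had an unadjusted p under 0.05, although 33 lay below 0 and the median was -0.36. In other limma fits 3 fell with arrays centred on their medians, 6 with array weights and 7 with these 7 arrays alone. Top2a, a topoisomerase of dividing cells, read 8.47, 8.95 and 8.98 at P10 and 8.07, 8.07, 8.94 and 8.09 at P15 (-0.51 ± 0.45, adjusted p = 0.388). P15 replicate 3 thus read like the P10 arrays. Cenpe, a mitotic motor (-0.73 ± 0.41, adjusted p = 0.156), and Mcm6, a replicative helicase subunit (-0.62 ± 0.43, adjusted p = 0.259), were not called either.

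Of 17 interferon-induced genes 5 fell, such as Ifit3 (-1.51 ± 0.46, adjusted p = 0.00947), and 0 rose, with a median of -0.51. The fallen share was 29.4%, beside 22.5% of all tested genes. The count was 1 without WT P15 replicate 1 or 4 or WT P10 replicate 1 or 3, 3 without WT P15 replicate 2, 1 with a block for replicate numbers, 3 with no filter on dim genes, and 9 with arrays centred on their medians or in a fit of these 7 arrays alone. Among 14 clock genes 2 rose and 2 fell (4 in a fit of these 7 arrays alone), each 14.3%, beside 17.1% and 22.5% of all tested genes. The fallen count was 0 without WT P10 replicate 1, and the risen count was 1 without WT P10 replicate 3 or WT P15 replicate 1. Cry1, a repressor of the clock, rose by 0.81 ± 0.22 (adjusted p = 0.00406). Among 20 immediate early genes 1 rose (5%), Jund (0.67 ± 0.09), and 2 fell (10%), Jun among them (-0.99 ± 0.14, adjusted p = 4.29e-06). With arrays centred on their medians 7 fell. In a fit of these 7 arrays alone 3 clock genes rose, and with array weights 6 immediate early genes fell. In the main fit the shares of both lists lay below those of all tested genes. Counts this small, which change with the fit, do not set these lists apart from all tested genes. The time of day of collection is not given.

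Large rises outside the milk lists included Gldc, the glycine decarboxylase of mitochondria, which read 7.20, 7.39 and 8.002 at P10 and 10.70, 10.88, 10.42 and 10.99 at P15 (3.22 ± 0.19, 9.29-fold, adjusted p = 9.38e-13). Chrdl2, a BMP antagonist, rose by 2.98 ± 0.38, Slc9a4, a sodium-proton exchanger, by 2.89 ± 0.25 and Atp13a4, a P-type ATPase, by 2.84 ± 0.26. Drd4, a dopamine receptor, read 6.29, 6.85 and 6.93 at P10 and 9.35, 9.17, 8.62 and 9.51 at P15 (2.47 ± 0.17, adjusted p = 2.7e-11). Cck, the gut and brain peptide cholecystokinin, rose by 2.51 ± 0.37 and Phxr4 by 2.49 ± 0.27. No array of either stage overlapped in these genes, a condition of their choice.

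The largest fall was that of Pck1, the enzyme that makes glycerol backbones for fat storage in adipocytes. It read 12.46, 12.29 and 12.09 at P10 and 8.53, 10.25, 7.90 and 10.68 at P15 (-2.94 ± 0.54, 7.68-fold lower, adjusted p = 9.16e-05), so the P15 arrays spread more widely than those of P10. Hcar2, a receptor that restrains lipolysis in adipocytes, fell by 2.40 ± 0.36, Amy1, an amylase, by 2.49 ± 0.29, Rasd1, a small GTPase, by 2.35 ± 0.38 and Arxes1, an adipocyte gene, by 2.28 ± 0.41. Hp, haptoglobin, fell by 2.24 ± 0.22 (adjusted p = 1.16e-08), Nnmt, which methylates nicotinamide, by 2.18 ± 0.26 and Aspa, an aspartoacylase, by 2.21 ± 0.39. Cmbl (-2.28 ± 0.27), B3galt2, a galactosyltransferase (-2.25 ± 0.25), Ifi27l2a, an interferon-induced gene (-2.31 ± 0.25), and the small nucleolar RNA Snora31 (-2.30 ± 0.35) also fell.

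Of the 16865 genes, 35 (0.208%) were called between day 7 (P7) and P10 in WT glands, 21 upward (0.125%) and 14 downward (0.083%). That step shares the P10 arrays with the present one, so the difference of the steps was fitted instead. It was called for 2530 genes (15%), above 0 for 927 (5.5%) and below 0 for 1603 (9.5%). Without WT P10 replicate 1 it was called for 602 and without WT P10 replicate 2 for 1464. Of the 13 endothelial markers 12 were called and of the 18 white adipocyte markers 11, all downward, while of the 5 caseins 1 was called, Csn1s2b (1.86, adjusted p = 0.0432).

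The wild-type course of Lpo, Csn2 and Wap is given by stage, and differences between these genes were not tested. Lpo averaged 5.87 ± 0.24 before pregnancy, 5.72 ± 0.08 at day 3, 5.86 ± 0.13 at day 7, 6.15 ± 0.39 at P10 and 8.996 ± 0.54 at P15 (SD, n = 4, 3, 4, 3 and 4). Its difference of steps was 2.55 ± 0.42 (adjusted p = 0.000285). Csn2 averaged 11.47 ± 1.34, 11.58 ± 1.08, 12.62 ± 0.38, 13.03 ± 0.15 and 13.48 ± 0.06 over the same stages, and its difference of steps was not called (0.03, adjusted p = 0.988). Wap averaged 8.59 ± 1.55 at day 7 (SD, n = 4), with a difference of steps of 1.33 ± 1.25 (adjusted p = 0.504).

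Hmox1, the heme oxygenase, had the smallest p for the difference of steps. It averaged 8.68 ± 0.04 at day 7 (SD, n = 4), read 9.89, 10.43 and 10.63 at P10 and 8.23, 8.35, 8.05 and 7.94 at P15. It rose by 1.64 ± 0.19 from day 7 to P10 (adjusted p = 3.36e-05) and fell by 2.17 ± 0.19 from P10 to P15 (adjusted p = 2.04e-09). Adipoq averaged 12.29 ± 0.17 at day 7 (SD, n = 4) and 12.45 ± 0.12 at P10 (SD, n = 3), and its difference of steps was -1.47 ± 0.29 (adjusted p = 0.00111). For Foxa1, which averaged 9.68 before pregnancy and 8.38 at day 7, the difference of steps was not called (-0.54, adjusted p = 0.353).

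**Figure D4:**
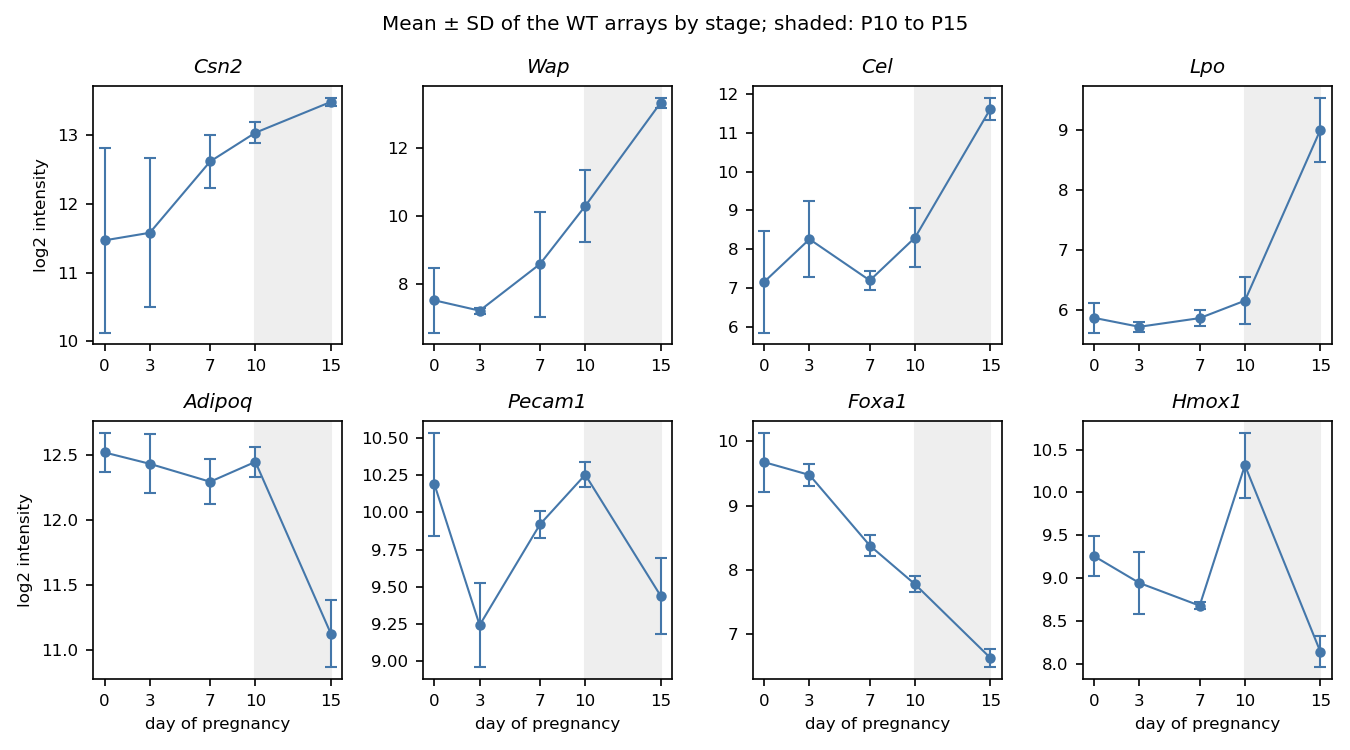
Mean log2 intensity (y axis) with SD of the WT arrays at each day of pregnancy (x axis, 0 is before pregnancy; 4, 3, 4, 3 and 4 arrays) for 8 genes, with P10 to P15 shaded. Lpo lies between 5.72 and 6.15 up to P10 and at 8.996 at P15, Adipoq lies at 12.29 or above up to P10 and at 11.13 at P15, and Hmox1 is highest at P10.

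The same step in KO glands uses other arrays. Of the 2885 genes risen in WT 1282 (44.4%) were also called as risen in KO and 44 as fallen, and these 1282 were 47% of the 2726 genes risen in KO. Of the 3794 genes fallen in WT 1213 (32%) also fell in KO and 171 rose, and the 1213 were 45% of the 2695 that fell in KO. In KO 16.2% of tested genes rose and 16% fell. Abcg2 rose by 2.15 ± 0.18 in KO beside 1.99 in WT, Atp2c2 by 2.55 ± 0.25 beside 2.81, and Gldc by 2.79 ± 0.19 beside 3.22.

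The difference between the KO and WT steps was called for 2920 genes (17.3%), 1754 above 0 (10.4%) and 1166 below (6.91%). KO P10 replicates 2 and 3 carried lymphocyte marker levels of 3.61 and 3.55 above the mean of all arrays, and KO P15 replicate 3 read 8.68 for Ptpn1, within the WT range. White adipocyte markers had a median step of -0.26 in KO and -1.22 in WT, and 10 of 18 were called as differing. Without the 7 arrays of the series that stand apart in lymphocyte or muscle level or go against their label, 26 genes were called in place of 2920, and with lymphocyte and muscle scores as covariates 166 were. Leaving those arrays out keeps 1 of 3 KO P10 arrays, which is assumed to vary like the other groups, so the lower count does not tell whether the steps differ. None of those 7 arrays is among the WT P10 and P15 arrays, and without them 7053 genes were called for the WT step.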

How the data were processed

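The deposited values are log2 intensities of 34760 probe sets of an Affymetrix whole-transcript array in 37 samples. Per the submitters' processing notes the authors used affy. How background was corrected, probes summarised and arrays normalized is not given in the sources used here, and the number of arrays limits the precision.

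The 21640 probe sets with exactly 1 gene symbol gave 19937 genes, and the brightest probe set on average stood for each of the 954 genes with several. A gene was tested where it passed the table's 25th percentile (4.96) on 3 or more arrays, leaving 16865. A limma 3.58.1 model (R 4.3.3) of all 10 groups was fitted to the 37 arrays, and contrasts were tested two-sided with Benjamini-Hochberg adjustment over all tested genes at 0.05. Fold changes are 2 to the power of the log2 difference.

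Of 550 entries in 31 gene lists 510 were tested. A list level is the mean of its members' log2 values, each centred on its mean over all arrays. Members and lists were chosen with earlier results of these data known. Named were the 15 largest rises and 15 largest falls among called genes whose groups do not overlap (predicted genes left out), all caseins, up to 6 called members of each list (2 with the smallest p where none was called), Ptpn1, and the 10 genes with the smallest p for each difference of steps. The text names examples from these, most of them stable to the loss of any single array, and further members such as Fasn, Krt8, Pgr and Apoe; both picks were made after the values were seen. Promoters are RefSeq sequences of GRCm38.p6, which served for names too and matched 19918 genes.

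Same-numbered replicates of P10 and P15 had correlations of deviations of 0.08, 0.15 and -0.08, so the numbers were not taken to pair the samples. The fit was tested on simulated data in which 200 of 16865 genes were changed. For the P15 minus P10 contrast 91% of changes of 1 and 59% of changes of 0.5 were recovered, with 5.06% of calls false. For the difference from the previous step 51% and 4% were recovered, and for the difference of KO and WT steps 68% and 19%. The simulated noise was independent between genes, without shifts of whole arrays, and far fewer genes changed than were called here. These rates therefore do not cover the dependence on scaling. Counts of called genes were refitted with all probe sets. These counts, the lists and the named genes were refitted without the filter, with further quantile normalization, centring on array medians, another variance prior, array weights, covariates, a replicate block, fewer groups (for contrasts whose groups remain), and each array left out. Chosen after seeing the data were leaving out 7 arrays in doubt (their lymphocyte or muscle level exceeded the arrays' median by over 1, or Ptpn1 went against the label), leaving out the dimmest 25% of tested genes, and centring on the genes left out by the filter.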

Additional observations from a re-analysis of the deposited data

Results flagged for a closer look

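Among the P15 arrays 1 stood far from the other 3 for 3 of the 142 genes checked, where chance alone flags about 1 in 20 groups. P15 replicate 3 read 11.88 for Lao1, below the nearest array at 12.03, and 8.94 for Top2a, above the nearest at 8.09. P15 replicate 1 read 9.15 for Esr1, above the nearest at 8.81. Lao1 and Esr1 kept their calls with each of the 7 arrays left out in turn.

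For 30 of the genes named, the step from P10 to P15 differed between KO and WT glands by limma with all arrays, with adjusted p of at most 0.0337. Without the arrays in doubt 0 of the 30 were called (adjusted p 0.0942 to 0.83), and with lymphocyte and muscle scores as covariates 0 were (adjusted p 0.0602 to 0.753). Without those arrays 1 of 3 KO P10 arrays is left and is assumed to vary like the other groups, so the lost calls say little about the stability of the differences. All 30 kept their sign, and 3 were at least as large, Ccl28 (-1.71 in place of -1.12), Slc2a1 (-0.85 in place of -0.66) and Sec23b (-0.63 in place of -0.52). The other 27 were smaller, 14 of them under 50% of their size with all arrays, such as Hmgcs1 (0.31 in place of 1.12) and Dgat2 (0.25 in place of 0.75). The values that follow are the KO step minus the WT step on the log2 scale, with all arrays. Genes that fell in WT and fell less or not in KO were Cox8b (3.03), Snora31 (2.56), Rasd1 (2.44), Amy1 (2.07), Arxes1 (1.82), Hcar2 (1.79), Aspa (1.77), Cmbl (1.74), Acvr1c (1.70), B3galt2 (1.60), Aqp7 (1.27), Adig (1.25), Sdhb (1.22), Hmgcs1 (1.12), Foxa1 (0.94), Flt1 (0.93), Col4a2 (0.90), Jun (0.90), Esr1 (0.86), Plin1 (0.80), Adipoq (0.75), Dgat2 (0.75) and Ndufa2 (0.62). Genes not called in WT were Sqle (0.96) and Krt18 (0.89). Genes that rose in WT and rose less or not in KO were Phxr4 (-1.79), Ccl28 (-1.12), Spcs3 (-0.74), Slc2a1 (-0.66) and Sec23b (-0.52).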

How the results depend on the processing

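The count of genes called between P10 and P15 was 6679 and stayed within 1.5 times under every alternative on the same genes, while testing all probe sets called 12816. With single arrays left out it ranged from 4819 to 6629. With the replicate block, which pairs same-numbered samples, it was 6299, and the block changed no call among the 120 called genes named; it gave 2768 for the difference of KO and WT steps and 2128 for the difference from the previous step. Of those 120 genes, centring on medians lost 4 calls, WT arrays alone 2 and leaving out WT P10 replicate 1 lost 7, and 113 kept their call in all 7 fits that left out an array. Most of the 120 were picked as stable to the loss of single arrays, so these numbers do not measure stability. Of all 6679 called genes, 4728 kept their call and direction without WT P10 replicate 1.

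The difference of KO and WT steps (2920) moved to 6057 with all probe sets, 5671 with arrays centred on their medians, 6355 with array weights, 166 with covariates and 26 without the arrays in doubt (which leaves 1 KO P10 array), and ranged from 1371 to 4554 with single arrays left out. The difference from the previous step (2530) moved to 5609, 4283 and 5791 under the first 3 of these, and ranged from 602 to 2561 with single arrays left out. The centring chosen after seeing the data gave 2195 risen and 4379 fallen genes for the P10 to P15 step, and leaving out the dimmest 25% of tested genes 2122 and 3714. The cause of these shifts was not tested. The unknown normalization limits what can be said of dim genes.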
